A study of Rattus norvegicus with 4 samples.

Results

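Cells make cholesterol from acetyl units through the mevalonate pathway, and 8 genes of this pathway and its control were followed here in rat trigeminal nerve tissue. Hmgcs1 encodes the cytosolic synthase that makes HMG-CoA, the substrate for mevalonate. Idi1 and Fdps encode enzymes that turn isoprenoid units into farnesyl diphosphate, Fdft1 encodes squalene synthase, Sqle the epoxidase that oxidises squalene, Lss the cyclase that closes the sterol ring as lanosterol, and Cyp51 the demethylase that acts on lanosterol. Insig1 encodes a protein of the endoplasmic reticulum that holds back the SREBP transcription factors when sterols are plentiful, and it is itself an SREBP target. Myelin is rich in cholesterol, which in the nervous system is largely made on site, by oligodendrocytes in central nerve tissue and by Schwann cells in peripheral nerve. The 8 genes were taken by their symbols, and each symbol stood once among the 32623 genes counted. Which of them to follow was decided with earlier results of these data known.

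The tissue came from adult male wild type Sprague-Dawley rats with a trigeminal neuralgia model (TN), made by pressing on the nerve root on 1 side. Root, ganglion and proximal branches of the diseased side of 1 animal each filled the Visium capture areas TN1, TN2 and TN3. The healthy control (HC) area held tissue of 2 animals, from the healthy side of 2 of the TN animals by the series description and from sham-operated rats by the study's methods. TN and HC may therefore be sides of the same animals, and an effect of the condition and one of the area cannot be told apart. A Visium spot is a small disc of tissue that can hold several cells, and its RNA is counted in unique molecular identifiers (UMIs). Fewer cells of a type and less RNA per cell cannot be told apart in such sums.

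The 4 areas held 6773 spots, between 1256 and 2013 each, with medians between 9487 UMIs per spot in TN1 and 30808 in TN2. Spots were clustered without the 8 genes and without the other lipid genes named below, and the clusters were named by marker genes. Neuron-rich spots (clusters 1 and 5, 2073 spots) had the highest score for sensory neuron markers such as Calca, Prph and Scn10a. Schwann cell spots (cluster 2, 869 spots) scored highest for peripheral myelin markers such as Prx and Egr2. Oligodendrocyte spots (clusters 4 and 7, 1335 spots) scored highest for central myelin markers such as Mog, Mobp and Opalin. All 9, 8 and 8 genes of these marker lists were found. Peripheral myelin markers summed to between 69120 and 89820 UMIs per 1000000 (CPM) in Schwann cell spots and to no more than 15620 CPM in the other spots of the 3 kinds. Central myelin markers summed to between 2617 and 2713 CPM in oligodendrocyte spots and to no more than 317 CPM in the others. Oligodendrocyte spots also held astrocyte markers, at 4281 to 7768 CPM over 7 genes, and neuron-rich spots held peripheral myelin markers, at 9928 to 15620 CPM. TN2 had 9 Schwann cell spots, under the minimum of 20 set for a sum, so Schwann cell levels rest on TN1, TN3 and HC. These areas had 423, 379 and 58 such spots. Sensory neuron markers summed to 1517, 1538 and 3949 CPM in them, against 7737 CPM in neuron-rich spots of HC. Cluster 3, with 328 spots of TN2 and 509 of TN3, was left unnamed. Its scores for peripheral myelin markers (1.472) and connective tissue markers (1.418) were close. Peripheral myelin markers summed to 32890 CPM there in TN2 and 28910 CPM in TN3, so Schwann cell spots do not hold all tissue with these markers. In sums over each of the 3 kinds of spots, every level of a gene given below comes from at least 69 UMIs. Sums of a single cluster can be smaller, such as 38 UMIs of Insig1 in cluster 7 of TN2.

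The stretches of 250 bases before the start of 4 of the genes are shown because Lss, Cyp51 and Hmgcs1 differed between the kinds of spots whereas Fdps was not called different in any of these comparisons. They are RefSeq sequences of the rat assembly GRCr8, written from the 5′ end on the strand of the gene. Capitals mark CCAAT, the box known for binding NF-Y, and GGGCGG, the box known for binding Sp1, on either strand, so that ATTGG and CCGCCC are the same boxes read on the other strand.
Hmgcs1 (chr2:53382054-53382303, plus strand): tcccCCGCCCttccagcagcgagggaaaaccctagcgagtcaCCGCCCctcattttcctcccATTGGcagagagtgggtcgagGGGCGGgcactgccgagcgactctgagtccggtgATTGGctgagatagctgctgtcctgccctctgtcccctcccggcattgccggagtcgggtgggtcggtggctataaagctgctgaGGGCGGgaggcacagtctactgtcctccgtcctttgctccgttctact
Lss (chr20:12118231-12118480, minus strand): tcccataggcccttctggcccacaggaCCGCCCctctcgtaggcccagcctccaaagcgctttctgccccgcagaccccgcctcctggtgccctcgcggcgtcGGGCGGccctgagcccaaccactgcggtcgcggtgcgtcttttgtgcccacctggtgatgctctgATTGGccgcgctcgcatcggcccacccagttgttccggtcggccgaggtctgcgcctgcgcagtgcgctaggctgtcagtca
Cyp51 (chr4:30991443-30991692, plus strand): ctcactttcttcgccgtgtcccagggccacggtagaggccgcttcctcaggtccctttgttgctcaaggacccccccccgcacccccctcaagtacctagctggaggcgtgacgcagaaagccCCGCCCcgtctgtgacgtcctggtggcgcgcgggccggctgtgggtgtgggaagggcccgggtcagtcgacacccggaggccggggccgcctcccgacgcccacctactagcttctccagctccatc
Fdps (chr2:176804817-176805066, minus strand): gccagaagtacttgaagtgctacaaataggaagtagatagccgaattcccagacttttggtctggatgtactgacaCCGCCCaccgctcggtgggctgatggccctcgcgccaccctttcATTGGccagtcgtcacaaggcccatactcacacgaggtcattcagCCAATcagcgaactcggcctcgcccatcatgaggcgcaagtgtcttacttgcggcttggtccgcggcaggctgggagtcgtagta
RefSeq promoters were matched for 6 of the 8 genes, the 4 shown and those of Idi1 and Insig1, and none was matched for Sqle and Fdft1. CCAAT stood in 5 of the 6, against 34% of the 33469 promoters of the same length in the table, and GGGCGG in 5 of the 6, against 30.5%. Cyp51 was the gene without CCAAT and Idi1 the gene without GGGCGG. TCACNCCAC, a form of the sterol regulatory element that SREBP binds, stood in 0 of the 6 and in 0.974% of all. A match of letters is a description of the window, and no match says only that these letters are not in it.

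The first question was where in the tissue the pathway took the largest share of the UMIs. Summed over the 8 genes, the level was 3277, 1720, 3630 and 4384 CPM in oligodendrocyte spots of areas TN1, TN2, TN3 and HC. In neuron-rich spots it was 2141, 1616, 1814 and 2084 CPM in TN1, TN2, TN3 and HC, and in Schwann cell spots 2646 CPM in TN1, 1536 in TN3 and 2599 in HC. By share of UMIs, oligodendrocyte spots were thus the highest of these kinds in TN1, TN3 and HC. In TN2 they were above neuron-rich spots by little. The 9 Schwann cell spots of TN2, under the minimum for a sum, had 1794 CPM from 460 UMIs, above the oligodendrocyte level there. Neuron-rich spots were deeper, with medians of 34891.5, 39966, 27226 and 28886 UMIs per spot in TN1, TN2, TN3 and HC. In oligodendrocyte spots these medians were 5072, 7307.5, 4148 and 10812.5. Counted per spot, the 8 genes had more UMIs in neuron-rich spots of each area. In HC they had 64215 UMIs over 947 neuron-rich spots and 24061 over 480 oligodendrocyte spots. Within the areas, 6 of the 8 genes were higher in oligodendrocyte than in neuron-rich spots with edgeR's quasi-likelihood test at an adjusted p of 0.05, against 28.7% of the 11747 genes tested. The median log2 fold change of the 8 genes was 1.09, against 0.06 over all genes tested.

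Hmgcs1, at the entry to the pathway, was at 708, 479, 610 and 667 CPM in neuron-rich spots of areas TN1, TN2, TN3 and HC. In oligodendrocyte spots it was at 1148, 591, 1267 and 1530 CPM in TN1, TN2, TN3 and HC, so that TN2 lay inside the neuron-rich range and the other 3 areas above it. The log2 fold change within areas was 1.09 (standard error, SE, 0.20, adjusted p = 0.000562 with edgeR), and the ratio was above 1 in 4 of 4 areas.

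Idi1, the isomerase of the isoprenoid units, was at 49.8, 36.3, 48.6 and 46.3 CPM in neuron-rich spots of areas TN1, TN2, TN3 and HC. In oligodendrocyte spots it was at 124, 56.1, 165 and 126 CPM in TN1, TN2, TN3 and HC, with no overlap between the 2 kinds of spots. The share of all genes without such overlap was not counted, here or below. Its log2 fold change was 1.59 (SE 0.25, adjusted p = 0.000179 with edgeR). Fdps, the next enzyme of this branch, was at 483, 424, 393 and 445 CPM in neuron-rich spots of areas TN1, TN2, TN3 and HC. In oligodendrocyte spots it was at 475, 215, 365 and 504 CPM in TN1, TN2, TN3 and HC, above the neuron-rich level of the same area in HC alone. Its log2 fold change was 0.04 (SE 0.18, adjusted p = 0.879 with edgeR).

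Fdft1, which makes squalene, was at 239, 188, 193 and 244 CPM in neuron-rich spots of areas TN1, TN2, TN3 and HC. In oligodendrocyte spots it was at 252, 139.7, 209 and 303 CPM in TN1, TN2, TN3 and HC. These ranges overlapped, and the log2 fold change was 0.29 (SE 0.17, adjusted p = 0.169 with edgeR). The members that act next all passed the test. Sqle was at 154, 101, 127 and 149 CPM in neuron-rich spots of areas TN1, TN2, TN3 and HC, and in oligodendrocyte spots at 238, 128, 276 and 339 CPM in TN1, TN2, TN3 and HC. The oligodendrocyte level was above the neuron-rich level of the same area in 4 of 4 areas, with a log2 fold change of 1.10 (SE 0.19, adjusted p = 0.000341 with edgeR).

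Lss and Cyp51, whose promoters are printed above, had the largest differences of the 8 genes. Lss was at 65.4, 86.6, 94.6 and 118 CPM in neuron-rich spots of areas TN1, TN2, TN3 and HC. In oligodendrocyte spots it was at 166, 129, 339 and 406 CPM in TN1, TN2, TN3 and HC. Every oligodendrocyte value lay above every neuron-rich value, and the log2 fold change was 1.68 (SE 0.22, adjusted p = 5.59e-05 with edgeR). Cyp51 was at 303, 225, 263 and 333 CPM in neuron-rich spots of areas TN1, TN2, TN3 and HC. In oligodendrocyte spots it was at 711, 396, 909 and 1049 CPM in TN1, TN2, TN3 and HC, again without overlap, with a log2 fold change of 1.65 (SE 0.20, adjusted p = 2.72e-05 with edgeR). As for Idi1, how common such a lack of overlap is over all genes was not counted.

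Insig1, the sterol-sensing brake, was at 138, 76.4, 83.6 and 82.8 CPM in neuron-rich spots of areas TN1, TN2, TN3 and HC, and in oligodendrocyte spots at 163, 64.2, 99.8 and 126 CPM in TN1, TN2, TN3 and HC. TN1 was highest in both kinds of spots, and the ranges overlapped. Its log2 fold change of 0.49 (SE 0.18, adjusted p = 0.0418 with edgeR) did not pass the threshold under 9 of 16 alternative settings, among them DESeq2 size factors (adjusted p = 0.0565 with edgeR) and leaving out HC (0.237) or TN3 (0.081). Hmgcs1, Idi1, Sqle, Lss and Cyp51 passed it under all 16.

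**Figure D1:**
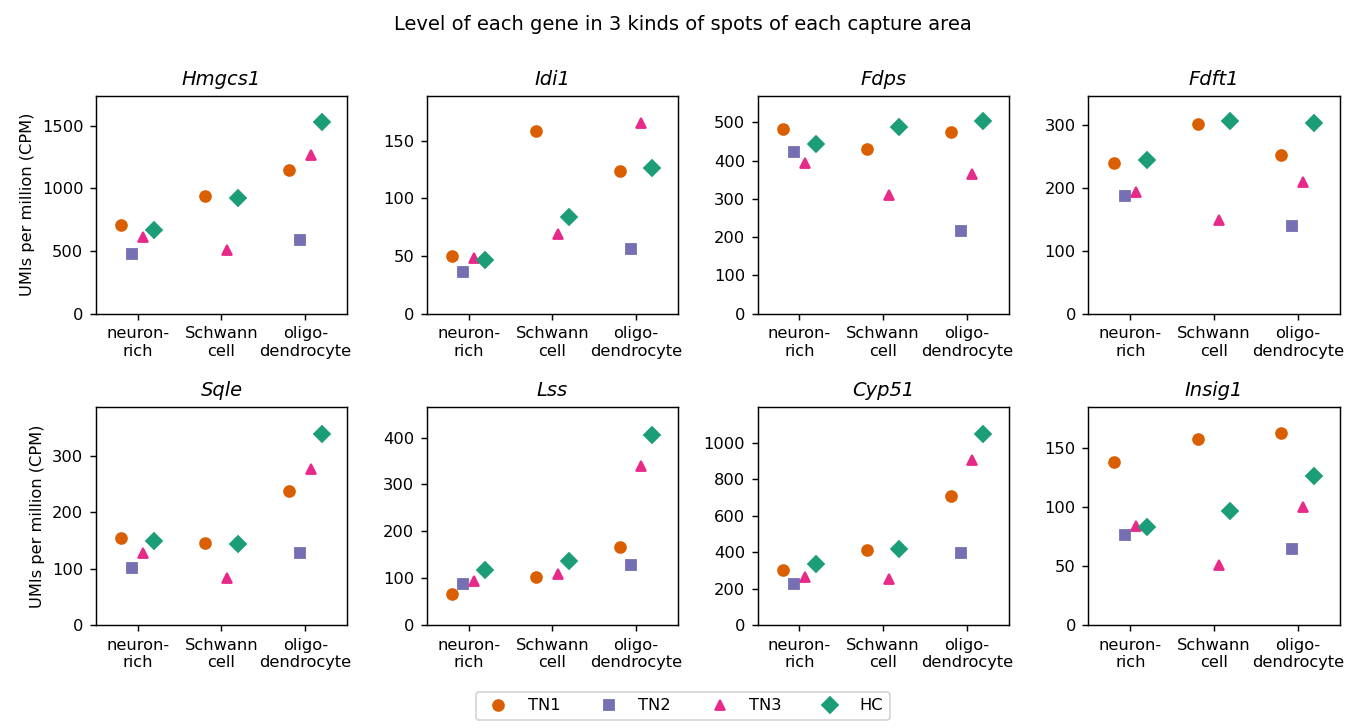
Level of each gene in CPM (linear axes from 0) in neuron-rich, Schwann cell and oligodendrocyte spots, with 1 point per capture area and no Schwann cell point for TN2. Lss, Cyp51 and Idi1 did not overlap between neuron-rich and oligodendrocyte spots, whereas Fdps was above the neuron-rich level of the same area in HC alone. The share of all genes without overlap was not counted.

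The fold changes are relative to TMM-scaled library sizes. The scaling factors were 1.08 to 1.12 for neuron-rich and 0.868 to 0.979 for oligodendrocyte sums, so a log2 fold change lies above the log2 ratio of the CPM values. In CPM, the log2 ratio of oligodendrocyte to neuron-rich spots lay between 0.57 and 1.84 over the 4 areas for Lss and between -0.98 and 0.18 for Fdps.

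The next question was how the other myelinated tissue compared. Against neuron-rich spots, 58% of genes changed 2-fold were called in counts simulated for Schwann cell spots, and 77% in those for oligodendrocyte spots. These simulations gave all genes the same dispersion, so the shares are not those of the 8 genes. In Schwann cell spots, 1 of the 8 genes was higher than in neuron-rich spots, against 24.2% of the 11747 genes tested. This was Idi1, at 159, 69.0 and 84.2 CPM in TN1, TN3 and HC, above each neuron-rich value, with a log2 fold change of 1.19 (SE 0.28, adjusted p = 0.00455 with edgeR). The call did not hold without TN1, where the log2 fold change was 0.68 (adjusted p = 0.0658 with edgeR), or with 12 clusters, where it was 0.85 (adjusted p = 0.0572). The log2 fold changes of the other members lay between -0.11 for Sqle and 0.46 for Lss, and the median of the 8 genes was 0.29, against 0.10 over all genes. Lss was at 103, 109 and 137 CPM in Schwann cell spots of TN1, TN3 and HC, above the neuron-rich level of the same area in 3 of 3, but was not called (adjusted p = 0.156 with edgeR). Without TN2 its log2 fold change was 0.60 (adjusted p = 0.0292 with edgeR).

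Set against Schwann cell spots, oligodendrocyte spots were higher for 4 of the 8 genes, against 14.1% of the 11747 genes tested. Cyp51 was at 410, 252 and 419.9 CPM in Schwann cell spots of TN1, TN3 and HC, a log2 fold change of 1.29 for oligodendrocyte spots (SE 0.22, adjusted p = 0.000797 with edgeR). Sqle was at 146, 83.1 and 143 CPM in TN1, TN3 and HC, a log2 fold change of 1.21 (SE 0.21, adjusted p = 0.000947 with edgeR). Both were higher in oligodendrocyte spots in 3 of 3 areas. Lss had a log2 fold change of 1.23 (SE 0.25, adjusted p = 0.00271 with edgeR) and Hmgcs1 of 0.75 (SE 0.22, adjusted p = 0.0221 with edgeR). Without TN3 neither of these passed the threshold, at 1.01 for Lss (adjusted p = 0.0544 with edgeR) and 0.47 for Hmgcs1 (adjusted p = 0.289), and Hmgcs1 also did not pass without HC (0.64, adjusted p = 0.0834). Hmgcs1 was at 940, 512 and 924 CPM in Schwann cell spots of TN1, TN3 and HC. TN3 thus had the lowest Schwann cell level of this gene, while its oligodendrocyte level was the second highest.

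The genes without a call were Fdps, Fdft1, Idi1 and Insig1. Fdps was at 429.6, 309.6 and 488 CPM in Schwann cell spots of TN1, TN3 and HC, and Fdft1 at 301, 149 and 306 CPM in TN1, TN3 and HC. Insig1 was at 157, 51.3 and 96.4 CPM in Schwann cell spots of TN1, TN3 and HC, with TN1 highest and TN3 lowest. For oligodendrocyte against Schwann cell spots, the log2 fold change was 0.09 for Fdps, 0.05 for Fdft1, 0.40 for Idi1 and 0.43 for Insig1. Without TN1, Idi1 (0.92, adjusted p = 0.0176 with edgeR) and Insig1 (0.71, adjusted p = 0.0494) passed the threshold.

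**Figure D2:**
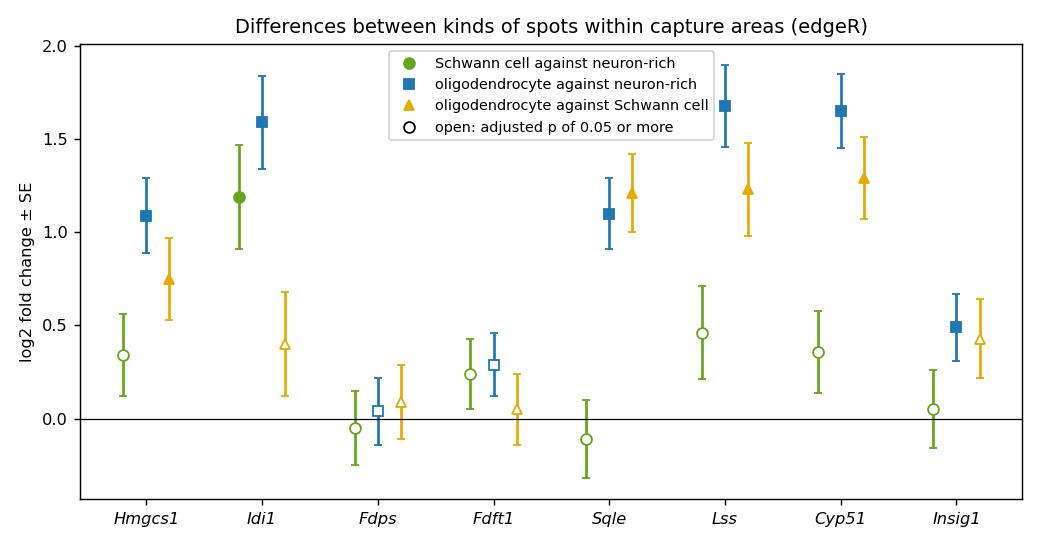
Log2 fold change of each gene with its standard error from edgeR for the 3 comparisons between kinds of spots, with open symbols for an adjusted p of 0.05 or more. The blue squares for Lss (1.68) and Cyp51 (1.65) are the highest, and all 3 symbols of Fdps and of Fdft1 are open.

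Other enzymes of the same pathway were described by lists of genes with a known role. Of 14 further sterol synthesis enzymes tested, 9 were higher in oligodendrocyte than in neuron-rich spots and none (0) lower, against the 28.7% called higher over all genes, with a median log2 fold change of 0.83. Sc5d, a late desaturase, had 1.62 (SE 0.16, adjusted p = 6.76e-06 with edgeR), Hsd17b7, a sterol ketone reductase, 1.38 (SE 0.26, adjusted p = 0.000705), Msmo1, which acts after Cyp51, 1.28 (SE 0.20, adjusted p = 0.000211), and Acat2, the acetyl-CoA acetyltransferase at the start, 1.13 (SE 0.18, adjusted p = 0.000204). Against Schwann cell spots 5 of the 14 were higher in oligodendrocyte spots (14.1% of all genes), with Sc5d at 1.29 (adjusted p = 0.000191 with edgeR), Hsd17b7 at 1.03 (0.0302), Tm7sf2, a sterol reductase, at 0.80 (0.0108) and Mvd, the mevalonate diphosphate decarboxylase, at 0.75 (0.0318). In Schwann cell against neuron-rich spots 5 of the 14 were higher (24.2% of all genes), among them Ebp, the sterol isomerase, at 0.76 (adjusted p = 0.00618 with edgeR), Msmo1 at 0.76 (0.0171) and Acat2 at 0.74 (0.0108).

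Of the 6 genes of SREBP regulation, 2 were higher in oligodendrocyte than in neuron-rich spots, a share near the 28.7% over all genes. These were Srebf1, the SREBP gene best known for fatty acid synthesis, with a log2 fold change of 0.68 (SE 0.13, adjusted p = 0.00103 with edgeR), and Scap, the escort protein, with 0.43 (SE 0.11, adjusted p = 0.00439). Both were also higher in Schwann cell spots, at 0.47 for Srebf1 (adjusted p = 0.0269 with edgeR) and 0.38 for Scap (0.0216), together with Mbtps1, the site-1 protease, at 1.19 (0.0061), which makes 3 of the 6 against 24.2% over all genes. None (0) of the 6 was called between oligodendrocyte and Schwann cell spots. Mbtps1 had a mean level under 10 CPM over the sums of a cluster and an area.

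Of 17 genes of sterol uptake, transport and efflux, 6 were higher and 5 lower in oligodendrocyte than in neuron-rich spots, near the shares over all genes (28.7% higher and 24.4% lower), with a median log2 fold change of -0.02. Apod, an apolipoprotein of nerve, had 2.12 (SE 0.44, adjusted p = 0.00138 with edgeR). Ch25h, the cholesterol 25-hydroxylase, had 1.05 (SE 0.31, adjusted p = 0.0118 with edgeR) and Lipa, the lysosomal acid lipase, -1.15 (SE 0.20, adjusted p = 0.000436 with edgeR). Ch25h, and Stard4 named below, had mean levels under 10 CPM over the sums of a cluster and an area. In Schwann cell spots 9 of the 17 were higher and 2 lower than in neuron-rich spots, against 24.2% and 19.8% of all genes, led by Lrp1, an endocytic receptor, at 1.50 (SE 0.14, adjusted p = 1.68e-05 with edgeR), Apod at 1.45 (adjusted p = 0.0266), Nr1h3, the sterol-sensing receptor LXR alpha, at 1.24 (0.000429) and Mylip, a ligase that removes lipoprotein receptors, at 1.12 (0.000145). Oligodendrocyte spots were lower than Schwann cell spots for 6 of the 17, against 13.1% of all genes, among them Nr1h3 at -1.55 (adjusted p = 0.00025 with edgeR), the sterol carrier gene Stard4 at -1.48 (0.00889) and Mylip at -0.97 (0.000784), and higher for 2, against 14.1%, among them Cyp46a1, the cholesterol 24-hydroxylase, at 0.89 (0.0119).

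Of 11 genes of fatty acid synthesis, 6 were higher and 1 lower in oligodendrocyte than in neuron-rich spots, against 28.7% and 24.4% of all genes. Elovl5, an elongase, had a log2 fold change of 2.40 (SE 0.46, adjusted p = 0.000886 with edgeR). Acaca, the acetyl-CoA carboxylase, had 1.69 (SE 0.58, adjusted p = 0.0266 with edgeR) and Scd2, a desaturase, 1.13 (SE 0.18, adjusted p = 0.000196 with edgeR). Elovl5 and Acaca were weakly counted, with mean levels under 10 CPM over the sums of a cluster and an area. In Schwann cell spots 2 were higher than in neuron-rich spots, Scd2 at 0.63 (adjusted p = 0.021 with edgeR) and Srebf1, which is on this list too, while Scd was lower at -1.25 (0.0118), against 24.2% higher and 19.8% lower over all genes. Oligodendrocyte spots were higher than Schwann cell spots for Elovl5 at 2.56 (adjusted p = 0.0141 with edgeR), Scd at 1.98 (0.000986) and Acss2, an acetyl-CoA synthetase, at 0.82 (0.00751), and lower for Fads1, a fatty acid desaturase, at -0.59 (0.00939), against 14.1% higher and 13.1% lower over all genes.

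Oligodendrocyte spots were not uniform. Cluster 7, led by Sema4d, Klk6 and Mog, had 4268, 2225, 5224 and 4774 CPM of the 8 genes together in TN1, TN2, TN3 and HC. Cluster 4, led by Mobp, Aqp4 and Mog, had 2870, 1391, 2940 and 2823 CPM in TN1, TN2, TN3 and HC. Each of the 8 genes was higher in cluster 7 in 4 of 4 areas, with log2 ratios of the CPM of at least 0.77 for Lss and between 0.01 and 0.77 for Insig1. The share of all genes with this order was not counted. The central myelin markers summed to 2821 to 3635 CPM in cluster 7 and 1839 to 2340 CPM in cluster 4, and the astrocyte markers to 3852 to 8250 and 4458 to 7454 CPM. Spots of cluster 7 also held more UMIs, with medians of 7749, 9508, 5912 and 12187.5 per spot in TN1, TN2, TN3 and HC. In cluster 4 these medians were 4598, 5841, 3370 and 7596.5. The part of these differences in marker content and depth in the level of the 8 genes was not tested. TN2 was the lowest area in both clusters, at a level below the HC, TN1 and TN3 values of either cluster.

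Against neuron-rich spots, cluster 4 alone had 5 of the 8 genes called higher, against 2646 of the 11267 genes tested. The log2 fold changes of these 5 ran from 0.69 for Hmgcs1 to 1.29 for Idi1. Cluster 7 alone had 7 called higher, against 3127 of the 11695 genes tested. These 7 included Fdft1 at 0.59 (adjusted p = 0.00752 with edgeR), and Fdps remained without a call at 0.31 (adjusted p = 0.139). These fits by cluster were chosen after the data had been seen.

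Outside the 3 kinds of spots the summed level stayed below the oligodendrocyte level of the same area. The central neuron cluster, present in TN1 and TN2, had summed levels of 1536 and 1429 CPM. The unnamed cluster 3, the astrocyte cluster and the connective tissue cluster had 20 or more spots in TN2 and TN3 alone, and in these areas their sums were 1117 and 951 CPM, 798 and 896 CPM, and 713 and 724 CPM. The blood and bone cluster had 1859 CPM in TN1, 1646 in TN3 and 2103 in HC. The order of the clusters by their highest value was 7, 4, 2, 1, 5, 6, 8, 3, 9 and 10. Neighbours in this order overlapped over areas from cluster 7 to cluster 6 and did not overlap from cluster 6 on.

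**Figure D3:**
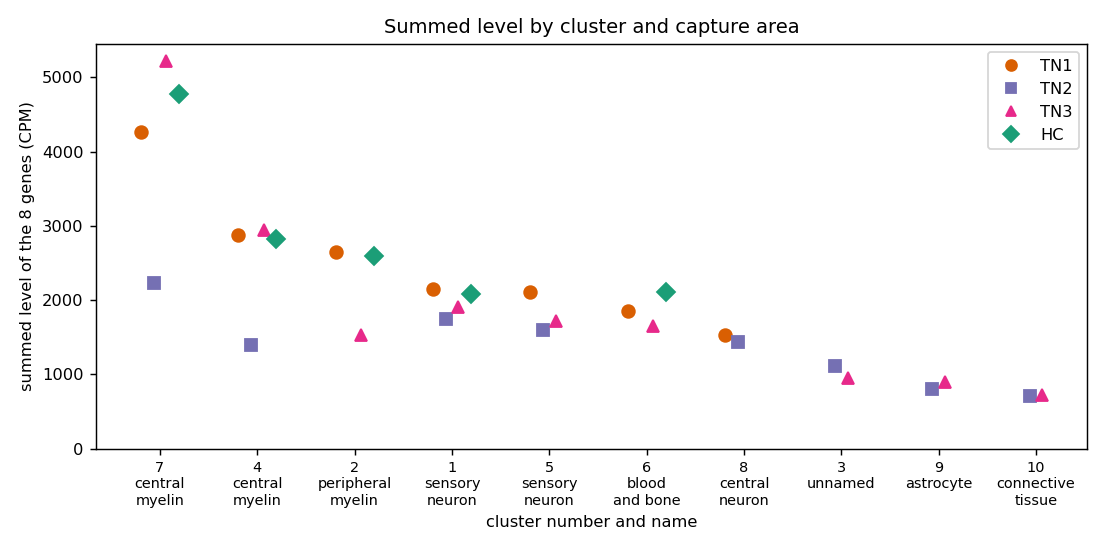
Summed level of the 8 genes in CPM (linear axis from 0) by cluster, ordered by the highest value, with 1 point per capture area that had 20 or more spots of the cluster. Cluster 7 reached 5224 CPM in TN3, and TN2 was at 2225 CPM there and at 1391 CPM in cluster 4.

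The samples also allow TN to be set against HC. As 1 area, HC has no spread of its own and is assumed to vary like the TN areas. Over all spots, the 8 genes together were at 2170, 1329, 1443 and 2402 CPM in TN1, TN2, TN3 and HC. All 3 TN areas were below HC for 6 of the 8 genes, against 25.1% of the 14902 genes tested. Hmgcs1 was at 724, 395, 477 and 790 CPM in TN1, TN2, TN3 and HC, and Lss at 75.4, 75.4, 97.4 and 161 CPM in TN1, TN2, TN3 and HC. The log2 fold changes were -0.65 for Hmgcs1 (SE 0.40) and -1.04 for Lss (SE 0.26), and they were below 0 for all 8 genes, with a median of -0.63 against 0.06 over all genes.

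None of these passed the adjusted threshold with edgeR, as was the case for all genes (0 of 14902, which is 0%), with 1271 at an unadjusted p under 0.05 and 158 called by DESeq2. The smallest adjusted p among the 8 genes was 0.556, for Lss. Without TN1, 5 of the 8 were called lower, against 6.70% of 14692 genes, with log2 fold changes of -0.94 for Hmgcs1, -1.06 for Sqle, -0.98 for Lss, -1.05 for Cyp51 and -0.88 for Fdft1 and adjusted p between 0.0279 and 0.0496. Idi1 was at 73.9, 34.5, 49.4 and 59.0 CPM in TN1, TN2, TN3 and HC, and Insig1 at 139.9, 65.6, 57.4 and 87.7 CPM in TN1, TN2, TN3 and HC, so that TN1 lay above HC for both. The areas differ in the tissue they hold. Cluster 3, with summed levels below those of neuron-rich spots, held 328 spots of TN2 and 509 of TN3 but 0 of TN1 and of HC. Cluster 7, with the highest summed levels, held 344 spots of HC but 76, 53 and 62 of TN1, TN2 and TN3. The central neuron cluster (cluster 8) held 400 spots of TN1 and 127 of TN2 but 0 of TN3 and of HC. The part of these differences in the result over all spots was not tested.

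In neuron-rich spots, where the values per area stand above, 3 of the 8 genes were below the HC value in each of the 3 TN areas, namely Lss, Cyp51 and Fdft1, against 24.6% of the 13053 genes tested. The log2 fold change of Lss was -0.59 (SE 0.24, adjusted p = 0.499 with edgeR), and those of the other 7 lay between -0.40 for Cyp51 and 0.19 for Insig1. edgeR called 0 of the 13053 genes (0%) and DESeq2 called 132, while 1299 had an unadjusted p under 0.05 with edgeR. Of the 14 other sterol synthesis enzymes 12 had a log2 fold change below 0, with a median of -0.24 against 0.03 over all genes, and 0 were called. Nerve injury markers (7 of 7 found) summed to 1741 to 3066 CPM in TN and 1015 in HC, macrophage markers (7 of 7) to 298 to 650 CPM in TN and 165 in HC, and their part in these values was not tested.

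In oligodendrocyte spots 6 of the 8 genes had each of the 3 TN areas below HC, against 16.1% of the 9779 genes tested. Lss was at 211 ± 112 CPM in the TN areas (SD, n = 3) against 406 in HC, Cyp51 at 672 ± 259 CPM in TN and 1049 in HC, and Hmgcs1 at 1002 ± 361 CPM in TN and 1530 in HC. The log2 fold changes were -1.01 for Lss (SE 0.50), -0.71 for Cyp51 (SE 0.43) and -0.68 for Hmgcs1 (SE 0.42), each with an adjusted p of 1 with edgeR. edgeR called 0 of the 9779 genes (0%) and DESeq2 called 4, while 296 had an unadjusted p under 0.05 with edgeR. Of 13 other sterol synthesis enzymes 11 had a log2 fold change below 0, with a median of -0.59, as had 7 of 8 fatty acid genes, with a median of -0.42. The median over all genes was 0.03. Connective tissue markers (6 of 6 found) summed to 520, 3420, 1747 and 610 CPM in TN1, TN2, TN3 and HC, so that the area with the lowest summed level of the 8 genes had the most of them. Nerve injury markers (7 of 7) were at 448, 522, 419 and 249 CPM and satellite glia markers (3 of 3) at 999.9, 1259, 912 and 791 CPM in the same order. The satellite glia list was lower in neuron-rich spots, at 260 to 325 CPM. In the astrocyte cluster it was at 2148 CPM in TN2 and 2142 in TN3, so it was not particular to satellite glia here. Central neuron markers (5 of 5) were at 74.3, 57.5, 2.19 and 0.911 CPM in TN1, TN2, TN3 and HC. The TN3 and HC values are near the floor, with 2 of the 5 genes at 0 UMIs in TN3 and 3 in HC. Every TN area was above HC for the nerve injury, satellite glia and central neuron lists, whereas TN1 was below HC for connective tissue markers. Oligodendrocyte spots of HC also held more UMIs, with a median of 10812.5 per spot against 5072, 7307.5 and 4148 in TN1, TN2 and TN3. The part of all these in the result was not tested.

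The clusters within oligodendrocyte spots were not shared evenly between the areas. Cluster 7, the one with the higher levels, held 71.7% of the oligodendrocyte spots of HC (95% exact binomial interval 67.4% to 75.7%), but 19.9% in TN1 (16% to 24.3%), 27.9% in TN2 (21.6% to 34.8%) and 21.9% in TN3 (17.2% to 27.2%). Within a cluster the median difference between TN and HC was smaller, with standard errors of 0.33 to 0.58 for the single genes. The part of the cluster shares in the result was not tested. The median log2 fold change of the 8 genes was -0.68 over both clusters, -0.30 in cluster 4 alone and -0.37 in cluster 7 alone. In cluster 4 the summed level was 2870 CPM in TN1 and 2940 in TN3, against 2823 in HC, and 1391 in TN2. In cluster 7 TN3 was above HC, at 5224 against 4774 CPM, with TN1 at 4268 and TN2 at 2225. Lss kept the lowest log2 fold change in both, -0.74 in cluster 4 and -0.57 in cluster 7. None of the 8 genes was called within either cluster, and the intervals for shares of spots cover counting error only.

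**Figure D4:**
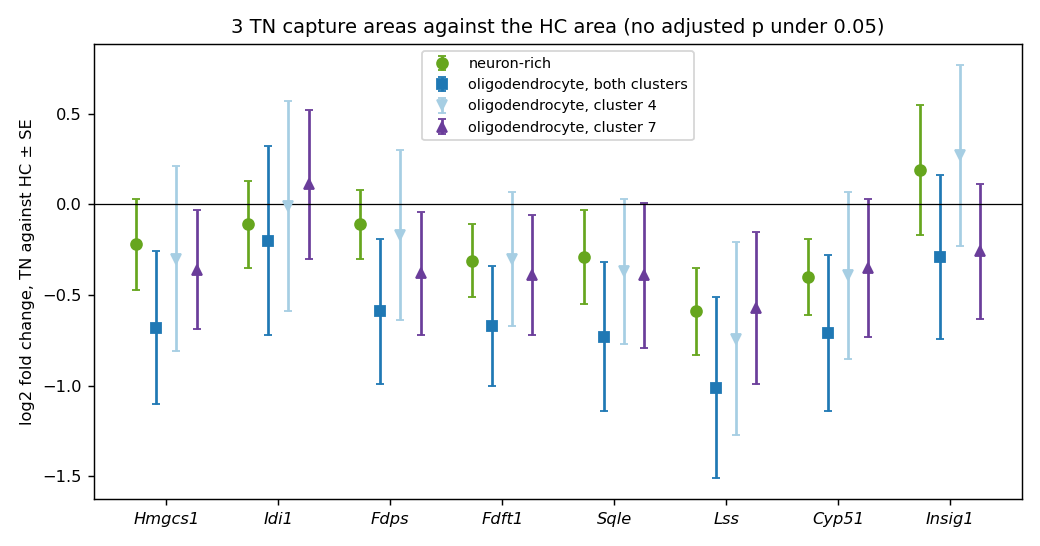
Log2 fold change of the 3 TN areas against the HC area with its standard error from edgeR, in neuron-rich spots, in all oligodendrocyte spots and in each oligodendrocyte cluster alone. Values over both clusters (median -0.68) lie lower than those within cluster 4 (-0.30) or cluster 7 (-0.37), and no point has an adjusted p under 0.05.

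Whether TN and HC differed by another amount in neuron-rich than in oligodendrocyte spots was tested as an interaction. The difference of the log2 fold changes (neuron-rich minus oligodendrocyte) was above 0 for all 8 genes, from 0.17 for Idi1 to 0.53 for Fdps, with a median of 0.49 against -0.06 over all genes. None of the 8 was called, the smallest adjusted p being 0.878 with edgeR, and 3 of 13308 genes were called in all (0.0225%).

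For Schwann cell spots the comparison of TN with HC could not be fitted with the 10 clusters, because TN2 had 9 of these spots. In its place, the tenth of each area with the highest share of peripheral myelin markers was taken, after the data had been seen. In these spots the 8 genes together were at 3178, 1336, 1664 and 2364 CPM in TN1, TN2, TN3 and HC, with HC inside the range of TN. These spots differed in tissue by area. Peripheral myelin markers (8 of 8 found) summed to 116000, 48530, 83040 and 58650 CPM in TN1, TN2, TN3 and HC, and sensory neuron markers (9 of 9) to 922, 2254, 1320 and 5313 CPM. Macrophage markers (7 of 7) were at 438 to 954 CPM in TN and 188 in HC, connective tissue markers (6 of 6) at 5344 to 7471 CPM in TN and 2676 in HC, and the part of these in the result was not tested. Hmgcs1 was at 1140, 422, 563 and 788.5 CPM in TN1, TN2, TN3 and HC. No member was called, while edgeR called 4.51% of 10565 genes, and the log2 fold changes ran from -0.43 for Fdps to 0.65 for Idi1 with standard errors of 0.34 to 0.89.

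Within the neuron-rich spots of the TN areas, cluster 5 was compared with cluster 1. Cluster 5 had the highest score of the 10 clusters for nerve injury genes, was led by Gal, Csrp3, Vip and Reg3b, had none (0) of its 10 leading genes on the sensory neuron list, and held 106, 373 and 265 spots of TN1, TN2 and TN3 but 2 of HC. It also held more peripheral myelin markers (8 of 8 found), at 14450 to 21120 CPM against 6169 to 9941 in cluster 1 of the TN areas, and more macrophage markers, at 418 to 702 against 239 to 366 CPM, and their part in the values below was not tested. Here 3 of the 8 genes were lower in cluster 5, against 14.5% of the 11134 genes tested, and 1 was higher, against 17.0%. Insig1 was at 125 CPM in cluster 5 and 145 in cluster 1 in TN1, at 73.4 and 94.5 CPM in TN2, and at 70.5 and 96.3 CPM in TN3. It was thus lower in 3 of 3 areas, with a log2 fold change of -0.31 (SE 0.07, adjusted p = 0.00204 with edgeR).

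Sqle was at 139 CPM in cluster 5 and 162 in cluster 1 in TN1, at 99.0 and 115 CPM in TN2, and at 109.7 and 145 CPM in TN3, a log2 fold change of -0.26 (SE 0.07, adjusted p = 0.0049 with edgeR). Hmgcs1 fell by 0.20 on the log2 scale (SE 0.06, adjusted p = 0.0111 with edgeR). Lss, in contrast, was at 69.8 CPM in cluster 5 and 63.1 in cluster 1 in TN1, at 87.9 and 78.8 CPM in TN2, and at 106 and 83.4 CPM in TN3, a log2 fold change of 0.25 (SE 0.08, adjusted p = 0.0151 with edgeR). With DESeq2 the calls of Hmgcs1 (adjusted p = 0.0586), Sqle (0.0721) and Lss (0.194) did not pass the threshold, and without TN3 those of Hmgcs1 (0.158 with edgeR), Sqle (0.105) and Lss (0.249) did not either. Without TN2 Hmgcs1 was also not called (adjusted p = 0.107 with edgeR). Insig1 passed under all 8 alternatives.

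Of the other genes, 10 of 17 in sterol uptake, transport and efflux were higher in cluster 5 and 1 lower, against 17.0% and 14.5% of all genes. Their median log2 fold change was 0.30 against 0.03 over all genes. Apod had 0.98 (SE 0.07, adjusted p = 6.83e-10 with edgeR), Abca1, a cholesterol exporter, 0.71 (SE 0.07, adjusted p = 4.83e-08), Cyp27a1, the sterol 27-hydroxylase, 0.68 (SE 0.17, adjusted p = 0.00287) and Lrp1 0.59 (SE 0.07, adjusted p = 4.76e-07). Of 13 other sterol synthesis enzymes, 1 was higher and none (0) lower, against the same 17.0% and 14.5% of all genes. Of 9 fatty acid genes Scd2 (0.22, adjusted p = 0.0051 with edgeR) and Fads1 (0.18, adjusted p = 0.0268) were higher, against 17.0% of all genes.

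The 8 genes did not all follow the same order over areas. Insig1 was highest in TN1 in all 7 clusters with 20 or more TN1 spots, and Lss was lowest in TN1 in 5 of these 7. The clusters of an area come from the same library, and how common such orders are over all genes was not counted. In cluster 2, Insig1 was at 157, 51.3 and 96.4 CPM in TN1, TN3 and HC, while Lss was at 103, 109 and 137 CPM. TN2 was the lowest area for Hmgcs1 and Cyp51 in 7 of the 8 clusters with 20 or more TN2 spots. Only areas with 20 or more spots were ranked. In clusters 3, 8, 9 and 10 this left TN2 and a single other area, which was TN1 in cluster 8 and TN3 in the rest. Over the 29 sums of a cluster and an area, Pearson's r of log2(CPM + 1) between members ran from 0.37 for Lss with Insig1 to 0.96 for Hmgcs1 with Sqle. Sums of the same area share a library and its depth, so these values are a description.

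**Figure D5:**
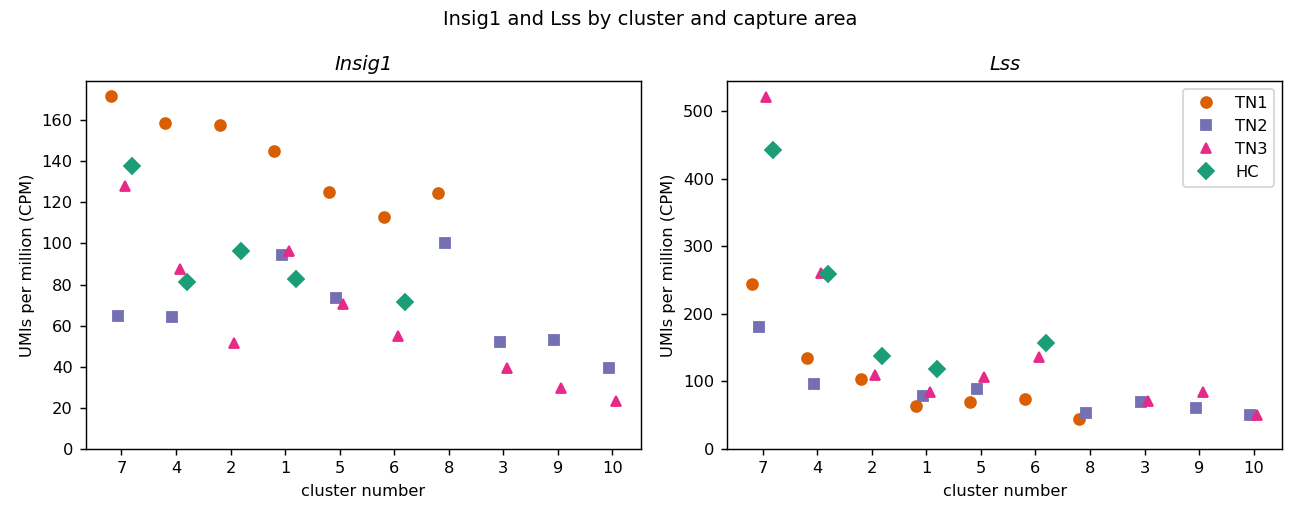
Level of Insig1 and of Lss in CPM (linear axes from 0) by cluster, in the order used for the summed level, with 1 point per capture area. TN1 is the highest point for Insig1 in each of its 7 clusters and the lowest for Lss in 5 of them. How common such orders are over all genes was not counted.

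Genes outside the lists whose level was most like the sum of the 8 genes were Aacs (Pearson's r 0.93), Ndfip2 (0.89), Ppdpf (0.88), Mtus1 (0.86), Acsl1 (0.84), Ctnnbip1 (0.84), Pla2g3 (0.84), Mfsd2a (0.82), Rap1gds1 (0.82) and Agmo (0.82), over the same 29 sums and among 7855 genes with a mean of at least 10 CPM. Aacs encodes an acetoacetyl-CoA synthetase, Acsl1 a fatty acyl-CoA synthetase, Mfsd2a a lipid transporter and Agmo an ether lipid monooxygenase. Of the genes on the lists, Tm7sf2 had 0.95 and Msmo1 0.93. Of the SREBP regulation genes with this mean level, Srebf2 had 0.67, Scap 0.58, Srebf1 -0.44 and Mbtps2 -0.52.

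Spot by spot, the share of UMIs on the 8 genes went with different tissue in different areas. In HC, Spearman's rho over 2013 spots was 0.47 with the share on central myelin markers, -0.35 with peripheral myelin markers and -0.45 with sensory neuron markers. In TN1, over 1587 spots, these were 0.07, 0.24 and -0.02, in TN2, over 1256 spots, -0.07, -0.12 and 0.35, and in TN3, over 1917 spots, 0.24, -0.19 and 0.16. Connective tissue markers had 0.17, -0.40, -0.46 and -0.33 in TN1, TN2, TN3 and HC. The shares have a common total in each spot, and these values are given as a description.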

How the data were processed

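RNA was captured on Visium areas and the authors deposited UMI counts per gene and spot, made with Space Ranger 1.2.0 per the file headers, with STAR also named in the submitters' processing notes; these counts were not normalized. For the genome build and for reads that match several gene copies, the choice is not given in the sources used. The area of a spot was read from the number after its barcode, and pairs of areas share 346 to 979 barcode sequences, since these mark positions.

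SCTransform (package sctransform, version 0.4.2, with Seurat 5.3.0) was run on genes seen in 10 or more spots. From its 3000 most variable genes, the 8 members and the lipid lists left out, 30 principal components were taken and split into 10 clusters by K-means (50 starts). Clusters were named by the marker list with the highest mean of centred log2(CPM + 5), and a cluster with its leading lists within 0.25 stayed unnamed. UMIs were summed per kind of spot and area (20 or more spots) and tested with edgeR 4.0.16 (R 4.3.3; TMM, filterByExpr, quasi-likelihood, Benjamini-Hochberg over all genes tested at 0.05, two-sided). Comparisons between kinds of spots took the area as a block. TN against HC left 2 residual degrees of freedom and assumes that HC, 1 area, varies like the TN areas. In counts simulated for oligodendrocyte against neuron-rich spots (11747 genes), 77% of genes changed 2-fold and 97% of those changed 4-fold were called. For Schwann cell against neuron-rich spots these shares were 58% and 95%. For TN against HC in oligodendrocyte spots (9779 genes) these shares were 0% and 35%, and in neuron-rich spots (13053 genes) 3% and 48%. The simulated counts had the same dispersion for all genes. Apart from library size and the changes set, they had no differences between areas or kinds of spots.

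The alternatives were DESeq2 1.42.0, its size factors in edgeR, no filter on low counts, other genes or spots, 8 or 12 clusters, log-normalised counts, the top 10% of spots by marker share, and each area left out. Members, lists and tests were chosen with earlier results of these data known. From each list, up to 4 called genes with the largest log2 fold change were named, and from outside the lists the 10 genes most correlated with the members. Some genes under this rule, and Lbr, are not reported here.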

Additional observations from a re-analysis of the deposited data

How the results depend on the processing

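Over the comparisons reported here and their alternatives there were 864 values of the 8 genes. Of these, 781 kept their direction and their side of the threshold and 21 lost a call. Another 10 gained one and 52 changed sign, none of the latter with a call. No cause of a change was tested. Genes called in TN against HC numbered 132 with DESeq2, 5 with log-normalised counts, 1 by marker share, 5 without cluster 5, 3 with no filter and 0 to 966 with an area left out (966 without TN1) in neuron-rich spots, 4 with DESeq2, 1 with no filter and 0 to 156 (without TN1) in oligodendrocyte spots, and 158 with DESeq2 and 0 to 2171 (without TN1) over all spots, against 0 in each. In the spots rich in peripheral myelin markers 866 were called with no filter and 0 (without TN3) to 1534 (without TN1) with an area left out, against 477. For the interaction 49 were called with no filter, 10 with log-normalised counts, 0 without cluster 5 and 3 to 203 (without TN3) with an area left out, against 3. DESeq2 called 1688 genes between clusters 5 and 1, against 3509. With an area left out, 2812 (without TN1) to 5223 genes were called between Schwann cell and neuron-rich spots, against 5174, and 1927 (without TN3) to 2983 between oligodendrocyte and Schwann cell spots, against 3199.

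Signs of log2 fold changes that had no call turned as follows. For Schwann cell against neuron-rich spots, 12 clusters gave -0.01 for Hmgcs1, -0.09 for Fdft1 and -0.23 for Insig1, log-normalised counts -0.01 for Fdft1 and -0.17 for Insig1, 8 clusters 0.00 for Fdps, and Insig1 had -0.01 with DESeq2, -0.08 by marker share and -0.04 without cluster 5; leaving out an area gave -0.32 to 0.05 for Sqle, -0.13 to 0.08 for Fdps and -0.21 to 0.31 for Insig1. For oligodendrocyte against neuron-rich spots Fdps had -0.02 with DESeq2 and with its size factors, -0.01 without mitochondrial, ribosomal protein and hemoglobin genes, -0.06 with 12 clusters, -0.27 in cluster 4 and -0.14 to 0.30 with an area left out, and Fdft1 -0.04 in cluster 4. For oligodendrocyte against Schwann cell spots the areas left out gave -0.18 to 0.25 for Fdft1, -0.01 to 0.21 for Fdps and -0.02 to 0.92 for Idi1. For TN against HC, Idi1 had 0.00 with log-normalised counts in neuron-rich spots and 0.24 in oligodendrocyte spots, and 0.11 in cluster 7, and Insig1 0.27 in cluster 4; with an area left out Idi1 ran from -0.20 to 0.04 (neuron-rich), -0.59 to 0.15 (oligodendrocyte) and -0.57 to 0.02 (all spots), and Insig1 from -0.12 to 0.37 (neuron-rich) and -0.60 to 0.16 (all spots). In the spots rich in peripheral myelin markers the areas left out gave -0.67 to 0.20 for Hmgcs1, -0.82 to 0.02 for Sqle, -0.70 to 0.13 for Cyp51, -0.74 to 0.05 for Fdft1, -0.22 to 1.07 for Idi1 and -0.46 to 0.83 for Insig1. The interaction of Idi1 was -0.17 with log-normalised counts and -0.11 to 0.45 with an area left out. Between clusters 5 and 1 these ranges were -0.13 to 0.01 for Fdft1, -0.00 to 0.12 for Fdps and -0.08 to 0.00 for Idi1.

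TN against HC in Schwann cell spots and its alternatives with clusters were not run, since TN2 had 9 such spots. No paired analysis was possible because HC is 1 area. HC as 1 area and the spread between TN areas limit every comparison of TN with HC: in simulated oligodendrocyte sums (9779 genes) 35% of genes changed 4-fold were called.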
